A study of Camelus dromedarius with 30 samples.

Results

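Kidney medulla was compared with kidney cortex in 5 dromedaries that had free access to water and food, which the labels call control. Each camel, C1 to C5, gave 1 medulla library and 1 cortex library, so the comparison holds 10 of the 30 libraries of the series and is paired by animal. The members of the comparison are the genes that passed a filter on low counts, 14297 of the 22444 genes in the table. All animals were adult males of 4 to 5 years, and RNA was poly(A)-selected from powdered frozen tissue, so each value is an average over all cells in a piece of tissue. The labels do not say which zone of the medulla was taken. The other 20 libraries come from 5 camels deprived of water for 20 days (dehydrated) and from 5 camels deprived for 20 days and then given free water for 3 days (rehydrated), and they are used here only to ask whether a difference seen in control camels was also seen in other animals. The individual labels give the rehydrated cortex and medulla libraries the same 5 animals, but the animal numbers in their library names differ between the tissues for every label, so which of them come from the same camel, and whether there were 5 camels, is uncertain.

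The cortex holds the glomeruli, the proximal convoluted tubules, the distal convoluted and connecting tubules and the first part of the collecting ducts. The proximal tubule takes back most filtered glucose, amino acids, phosphate and organic ions, and it draws its energy mainly from the oxidation of fatty acids. The outer medulla holds the straight end of the proximal tubule and the thick ascending limb, which moves salt into the interstitium without water, and the inner medulla holds thin limbs, collecting ducts, vasa recta and interstitial cells in a hypertonic, poorly oxygenated surrounding. Urea carriers, water channels and osmolyte transporters in these cells are part of the machinery that concentrates urine. In bulk samples of this kind, fewer cells of a type and less RNA per cell cannot be told apart.

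The cortex libraries carried 12634346 to 15443065 counted read pairs (median 14580597) and the medulla libraries 16799212 to 20005136 (median 18325743), and the tested genes held at least 99.87% of the counts of every library. RNA integrity numbers ran from 7.5 to 8.7 in the cortex and from 8.0 to 9.1 in the medulla. Levels are given as the number of read pairs relative to the library's total (CPM) after TMM scaling, a correction with factors of 0.757 to 0.916 for the cortex libraries and 1.09 to 1.28 for the medulla libraries. The cortex library of C3 stood apart from the other 4, with a count on 14199 genes against 15740 to 16497, and medulla C2 stood apart in the proximal tubule genes described below. Among cortex control libraries, only that of C3 has a name ending in a letter, as all medulla control names do. The labels do not explain these letters, and whether they mark a difference in handling was not tested. A gene is called where its adjusted p-value was under 0.05 in edgeR's quasi-likelihood test, adjusted over the 14297 genes by the Benjamini-Hochberg method, with the animal as a block, and every adjusted p for control camels comes from that test. A fold change is medulla over cortex, so that a positive log2 value means a higher level in the medulla.

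The medulla of watered camels had more RNA of the thick ascending limb, of the urea carrier SLC14A1 and the water channel AQP3, and of most endothelial and interstitial genes tested, while the water channels AQP1 and AQP2 were not called. The cortex had more RNA of 31 of 39 tested proximal tubule transporters and enzymes and of the connecting tubule. It also had more of the ammonia channels RHCG and RHBG and of most fatty acid oxidation genes tested. Respiratory chain subunits were higher in the cortex in 26 of 28 with TMM, but in 14 with library size alone. Among genes with a symbol and a mean of at least 10 CPM in the higher tissue, the widest gap in the medulla's favour was that of SLC14A1, the UT-B urea transporter, at a log2 fold change of 9.87, and the widest in the cortex's favour was that of KLK1, tissue kallikrein, at -7.55.

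Of the 14297 genes, 8243 (57.7%) were called. The medulla had the higher level in 4403 of the calls (30.8% of the genes tested) and the cortex in 3840 (26.9%). With a size of at least 2-fold added, 5292 genes (37.0%) were called, 3250 (22.7%) with more in the medulla and 2042 (14.3%) with more in the cortex. In 6387 genes (44.7%) all 5 libraries of one tissue lay above all 5 of the other, 3328 (23.3%) with the medulla on top and 3059 (21.4%) with the cortex on top. The median log2 fold change of all tested genes was 0.09. It was 0.61 with library size as the only scaling, a shift of 0.52, and the calls then split into 6989 with more in the medulla and 1873 with more in the cortex. A log2 value between 0 and -0.52 therefore turns positive without TMM, and list counts for control camels are given under both scalings. The TMM counts of each list are to be read against the 30.8% and 26.9% of all tested genes. Correlations of log2 CPM across genes, which are not independent, were 0.909 to 0.980 between cortex libraries, 0.948 to 0.981 between medulla libraries and 0.725 to 0.906 across tissues. Without animal C3, 7762 genes were called. Gene symbols were available for 3704 of the tested genes. Most came from the article's lists, largely of genes or proteins changed by dehydration or rehydration, so the named genes are not a random sample. According to the paper, its mass spectrometry reached only genes of high expression and mostly cytosolic proteins. Of the 3704 genes with a symbol, the medulla was higher in 1030 and the cortex in 1259, and their median was -0.11. List members come from these genes, which leaned more to the cortex than all tested genes did.

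Proximal tubule genes were mostly higher in the cortex. Of 43 transporters listed for this segment, 21 had an identifier and all 21 were tested. Of these, 15 were higher in the cortex and 2 in the medulla, where 26.9% and 30.8% of all tested genes were, and the median log2 fold change was -1.78 against 0.09 for all genes. With library size alone 13 were higher in the cortex and 3 in the medulla. Of 37 enzymes and brush border proteins listed, 18 were tested, 16 were higher in the cortex and none in the medulla, with a median of -2.13, and with library size alone 13 and 1. Defining members such as SLC5A2, SLC34A1, LRP2 and CUBN had no identifier paired with their symbol and were not analysed here.

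SLC22A8 (OAT3), which takes organic anions up from the blood side of the cell, had the largest gap of the transporters (ENSCDRG00005020013, CamDro2 chr10:8961194-8979607, plus strand). In the cortex of C1 to C5 it stood at 1098, 881, 659.8, 1261 and 1372 CPM, and in the medulla of the same animals at 60.7, 2.27, 13.1, 49.4 and 50.3 CPM. No medulla library came near any cortex library, and medulla C2 was the lowest, giving a log2 fold change of -5.40 (SE 0.61, adjusted p = 0.000159).

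SLC6A19, the neutral amino acid transporter of the brush border, was at 391 to 869 CPM in the cortex and at 2.51 to 77.3 CPM in the medulla, a log2 fold change of -4.57 (SE 0.54, adjusted p = 0.000192). SLC17A3, an organic anion and urate carrier, ABCC2 (MRP2), an apical efflux pump, and SLC13A3, a dicarboxylate carrier, had log2 fold changes of -3.99 (SE 0.54), -3.68 (SE 0.48) and -2.26 (SE 0.40), each without overlap between tissues. SLC37A4, which carries glucose 6-phosphate into the endoplasmic reticulum for the last step of gluconeogenesis, was lower in the medulla, at -2.20 (SE 0.25, adjusted p = 0.000147). 

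Among the enzymes, ANPEP, aminopeptidase N of the brush border, had a log2 fold change of -4.34 (SE 0.41), and MIOX, which opens the ring of myo-inositol, one of -3.83 (SE 0.47). In single libraries MIOX stood at 989, 680.3, 315, 1156 and 749 CPM in the cortex and at 96.8, 12.7, 11.6, 181 and 104 CPM in the medulla, where C2 and C3 were lowest and close to each other. PRODH2 (hydroxyproline dehydrogenase), BHMT (betaine-homocysteine methyltransferase) and ALPL (alkaline phosphatase) were lower in the medulla, at log2 values of -3.34, -3.09 and -2.77. GATM, the first enzyme of creatine synthesis, was called at -1.81 (SE 0.46, adjusted p = 0.00859) although its tissues overlapped, since medulla C4 and C5 (15.2 to 222 CPM over all 5) reached the cortex range of 151 to 601 CPM.

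SLC9A3 (NHE3), the sodium-proton exchanger, went the other way. Its cortex levels were 8.39, 4.67, 0.782, 4.07 and 2.08 CPM and its medulla levels 12.6, 26.6, 12.0, 14.4 and 30.6 CPM. The groups did not overlap, and the log2 fold change was 2.45 (SE 0.48, adjusted p = 0.00241). NHE3 is also known from the thick ascending limb. SLCO4C1, an organic anion carrier, was the other transporter higher in the medulla, at 1.96 (SE 0.68, adjusted p = 0.0323), with low levels of 4.78 to 11.6 CPM in the medulla and 0.0978 to 4.53 CPM in the cortex. Left without C3, C4 or C5, the fit called 1 of these 2 genes. Of both lists together, 6 members were not called, among them SLC23A1, a vitamin C carrier, at 0.04 (adjusted p = 0.925), SLC5A11, an inositol carrier, at 0.23 (adjusted p = 0.433), and SLC1A1, a glutamate carrier, at -0.68 (adjusted p = 0.0862).

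The proximal tubule genes also differed among the medulla libraries. Their 39 tested members summed to 19.6%, 6.64%, 19.2%, 24.5% and 29.3% of the cortex level of the same animal in C1 to C5. Medulla C2 had the lowest value of the 5 medulla libraries for 33 of the 39 members, and cortex C3 the lowest of the 5 cortex libraries for 22 of them. The transporters summed to 2208, 655, 1692, 3190.4 and 3266 CPM in the medulla of C1 to C5 and to 10337, 8638, 7823, 12197 and 10858 CPM in the cortex.

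**Figure D1:**
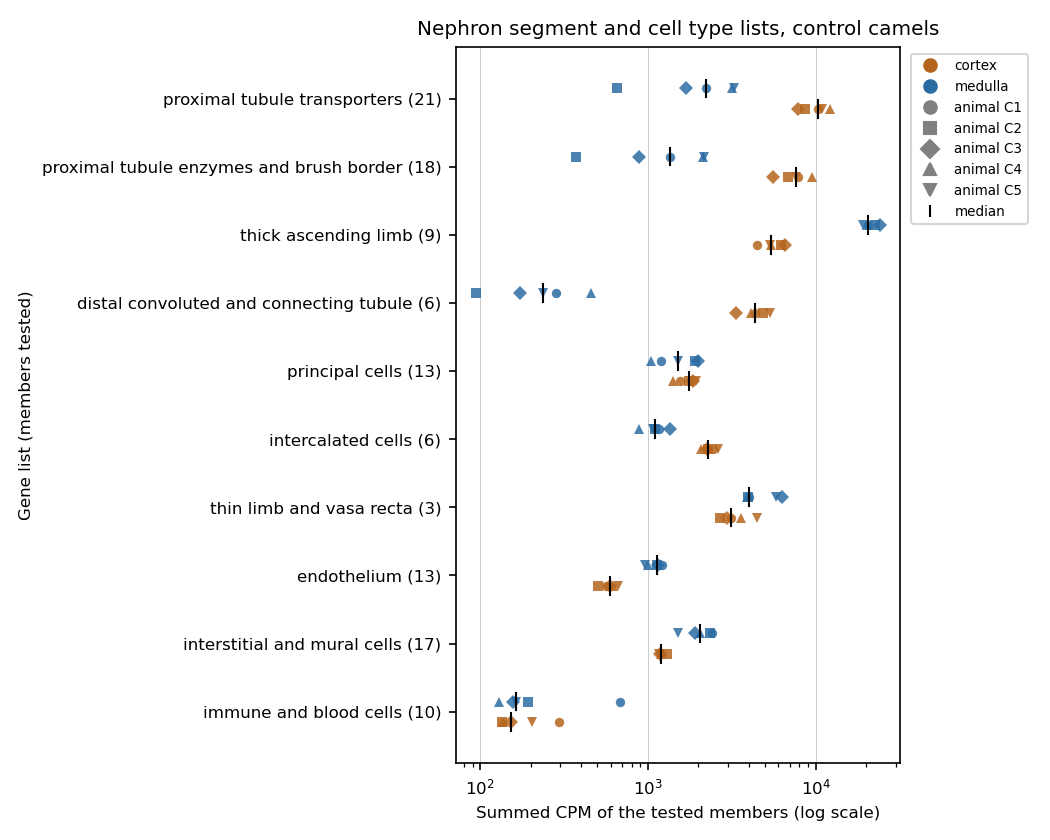
Summed CPM (log axis) of the tested members of each nephron segment or cell type list, with 1 point per control library, orange for cortex and blue for medulla, a symbol for each animal and a black line at the median of 5. Thick ascending limb sums lie at 19289.8 to 24112 CPM in the medulla and 4480 to 6545 CPM in the cortex. UMOD makes up most of each of these sums. Distal tubule sums lie at 94.6 to 457.6 CPM in the medulla and 3358 to 5341 CPM in the cortex, most of it from KLK1 and CALB1.

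Thick ascending limb genes were higher in the medulla. Of 17 genes listed, 9 were tested, 6 were higher in the medulla and 1 in the cortex, with a median of 2.23. The sodium-potassium-chloride cotransporter gene SLC12A1 had no paired identifier and was not analysed here. UMOD, which encodes uromodulin, the main protein of normal urine, stood at 2726, 3854, 4401, 3401 and 3280.2 CPM in the cortex and 16290.2, 17524, 19386, 14888 and 14075 CPM in the medulla (ENSCDRG00005019075, chr18:11435670-11450390, minus strand). Even the lowest medulla library lay far above the highest cortex library, and the log2 fold change was 2.23 (SE 0.23, adjusted p = 0.000107).

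CLDN19, a claudin of the tight junctions through which the limb takes back calcium and magnesium, was at 6.15, 9.48, 21.2, 2.97 and 4.35 CPM in the cortex and at 74.997, 108, 62.3, 72.2 and 62.4 CPM in the medulla. All 5 medulla libraries lay above all 5 cortex libraries, at a log2 fold change of 3.41 (SE 0.39, adjusted p = 0.000164). CLDN10, which forms sodium-selective pores in the same limb, was the 1 member higher in the cortex, at -0.73 (SE 0.17, adjusted p = 0.00585). It stood at 456 to 543 CPM in the cortex and at 243 to 416 CPM in the medulla. With library size as the only scaling CLDN10 was not called and 7 members were higher in the medulla.

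PPP1R1B (DARPP-32), a phosphatase inhibitor, ESRRB, a nuclear receptor, and TMEM72 had log2 fold changes of 3.34 (SE 0.29), 3.23 (SE 0.20) and 2.76 (SE 0.45). EGF, the precursor of epidermal growth factor, reached 2334 to 4167 CPM in the medulla against 664 to 1461 CPM in the cortex, a log2 fold change of 1.81 (SE 0.23, adjusted p = 0.000277). KCNJ16, a potassium channel subunit of the basolateral membrane, and PPP1R1A were not called, at 0.07 (adjusted p = 0.847) and 0.67 (adjusted p = 0.108).

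Genes of the distal convoluted and connecting tubule were higher in the cortex. Of 11 listed, 6 were tested, 4 were higher in the cortex and 1 in the medulla, and the same 4 and 1 were called with library size alone. KLK1, the protease that releases kinins in the connecting tubule, showed the widest gap of this list (ENSCDRG00005014393, chr9:9371432-9377815, minus strand). It stood at 1946, 2517, 2498, 2557 and 3751 CPM in the cortex and at 35.7, 2.23, 13.7, 18.7 and 18.2 CPM in the medulla. The 2 ranges lay far apart, with medulla C2 lowest, and the log2 fold change was -7.55 (SE 0.63, adjusted p = 4.56e-05). Kallikreins are a family of related genes, between which counts may be split.

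CALB1, the calcium-binding protein calbindin of the calcium-reabsorbing distal cells, was at 2229, 2087, 655, 1382 and 1384 CPM in the cortex and 203, 50.003, 111, 381 and 148 CPM in the medulla. The cortex of C3 was the lowest of its group and still above every medulla library, for a log2 fold change of -3.26 (SE 0.46, adjusted p = 0.000459). SLC8A1, the sodium-calcium exchanger, and KLHL3, the adaptor that controls degradation of WNK kinases, were lower in the medulla, at -3.30 (SE 0.28) and -2.02 (SE 0.18). PVALB, parvalbumin of the early distal convoluted tubule, was the member higher in the medulla, at low levels of 1.91 to 3.11 CPM against 0.725 to 1.17 CPM (1.22 (SE 0.37, adjusted p = 0.0179)). The call was lost without C4 and without C5. In dehydrated camels its log2 value was -1.71 (adjusted p = 0.000348 in their own fit), so the direction in control camels was not seen there.

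Collecting duct genes were listed by cell type. Of 13 tested principal cell genes, 8 were higher in the medulla and 2 in the cortex, with a median of 0.90, and with library size alone 9 and 2. Shares over all tested genes were 30.8% and 26.9% under TMM. Of 6 tested intercalated cell genes, all 6 were higher in the cortex, with a median of -0.81, and 3 of them with library size alone. Without C2, C4 or C5 the fit called 4 of these 6.

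AQP2, the water channel that vasopressin brings to the apical membrane, was not called. Its levels were 233, 155, 242, 154 and 189.8 CPM in the cortex and 180.3, 407, 304, 223 and 292 CPM in the medulla (ENSCDRG00005005216, chr12:11732224-11737545, minus strand). The tissues overlapped, and animal C1 had less in the medulla than in the cortex, so that the log2 fold change was 0.50 (SE 0.23, adjusted p = 0.0919). AQP3, the basolateral channel through which that water leaves the cell, did differ. It stood at 7.06, 5.66, 7.04, 9.41 and 7.98 CPM in the cortex and at 32.3, 141, 75.9, 26.5 and 50.8 CPM in the medulla, without overlap and with the highest value in C2, at a log2 fold change of 2.87 (SE 0.41, adjusted p = 0.000475).

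WNT7B, a secreted WNT ligand made by the collecting duct and required for a medulla to form, was close to absent from the cortex. Its cortex levels were 0.748, 0.141, 1.27, 1.02 and 1.27 CPM and its medulla levels 132, 132, 158, 81.4 and 118 CPM (chr12:64204956-64257775, minus strand). The log2 fold change was 7.17 (SE 0.38, adjusted p = 1.46e-05). RANBP3L and TFCP2L1 (a transcription factor of the collecting duct) were higher in the medulla, at 3.37 (SE 0.24) and 2.08 (SE 0.63). Among the claudins of this list, CLDN8, CLDN4 and CLDN7 were higher in the medulla at 1.26, 0.90 and 0.67, and CLDN3 was not called at 0.37 (adjusted p = 0.462).

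HSD11B2, the enzyme that shields the mineralocorticoid receptor from cortisol, was the clearest exception. It stood at 558, 551, 390.4, 462 and 533 CPM in the cortex and at 109.8, 160.0, 200.2, 119 and 182 CPM in the medulla, lower in every medulla library than in any cortex library, with a log2 fold change of -1.72 (SE 0.21, adjusted p = 0.000239). KRT19, a keratin, was lower in the medulla at -0.94 (SE 0.20, adjusted p = 0.00322), with overlap between tissues. SCNN1A, the alpha subunit of the epithelial sodium channel, was not called, at -0.18 (adjusted p = 0.414).

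Among the intercalated cell genes, the ammonia channels showed the largest differences. RHCG stood at 692, 545, 823, 620.1 and 843 CPM in the cortex and at 104, 95.9, 159.9, 80.9 and 95.7 CPM in the medulla, and RHBG at 53.5 to 76.2 CPM and 2.56 to 9.43 CPM. Neither overlapped, and their log2 fold changes were -2.74 (SE 0.18, adjusted p = 2.91e-05) and -3.50 (SE 0.33, adjusted p = 7.71e-05). The proton pump subunits ATP6V0A4 and ATP6V1B1 differed less, at -0.93 (SE 0.16) and -0.68 (SE 0.15). CA12, a carbonic anhydrase, and TMEM213 were called at -0.58 (adjusted p = 0.0364) and -0.51 (adjusted p = 0.0303), with overlap between tissues, and neither call held with library size alone.

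Of 8 genes listed for the thin limbs and vasa recta, 3 were tested and 2 were higher in the medulla, and all 3 with library size alone. SLC14A1 carries urea across the descending vasa recta and the red cell membrane (ENSCDRG00005015615, chr30:22599892-22621398, minus strand). In the cortex it stood at 0.665, 0.0707, 0, 0.254 and 0 CPM, which is 12 read pairs in all 5 libraries together, and in the medulla at 230.3, 252, 198, 123 and 133 CPM. It was absent or nearly so from every cortex library and well measured in every medulla library. The fitted log2 fold change was 9.87 (SE 0.49, adjusted p = 1.46e-05), and its size depends on the few cortex reads. SLC4A11, a membrane transporter of the thin descending limb, was at 2.20 to 4.40 CPM in the cortex and 14.4 to 30.9 CPM in the medulla, at 2.61 (SE 0.22, adjusted p = 4.96e-05).

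AQP1, the constitutive water channel of the proximal tubule, the thin descending limb and the descending vasa recta, had 3139, 2696, 2964, 3592 and 4473 CPM in the cortex and 3773, 3642, 6055, 3775 and 5659 CPM in the medulla. The medulla value was higher in all 5 animals, yet the tissues overlapped and the gene was not called, at 0.43 (SE 0.22, adjusted p = 0.119). The same contrast was called in the opposite direction in dehydrated camels (-0.78, adjusted p = 0.0121) and in rehydrated camels (-1.14, adjusted p = 0.00938). The difference between conditions was not tested here.

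Endothelial and interstitial genes were higher in the medulla, which held for 11 of 13 tested endothelial genes and 13 of 17 tested genes of interstitial and mural cells, with none higher in the cortex in either list. With library size alone the counts were 12 and 16. Under TMM the lists had median log2 fold changes of 0.93 and 0.75, and 30.8% of all tested genes were higher in the medulla. PECAM1, an adhesion molecule of all endothelium, stood at 186, 178, 167, 185 and 189.2 CPM in the cortex and at 343, 328, 334, 354 and 321 CPM in the medulla, a narrow band in each tissue, with a log2 fold change of 0.89 (SE 0.14, adjusted p = 0.000836). MMRN2, MYCT1 and ESAM, further endothelial genes, were higher in the medulla at 1.80, 1.74 and 1.42, and VWF, von Willebrand factor of larger vessels, was not called at -0.06 (adjusted p = 0.835). Without C1 or without C2, 7 endothelial genes were called in place of 11.

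FN1 (fibronectin) had the widest gap of the interstitial list. It stood at 51.8, 61.3, 17.9, 26.9 and 23.9 CPM in the cortex and at 175, 223, 191, 150.4 and 140.3 CPM in the medulla, without overlap, at a log2 fold change of 2.40 (SE 0.25, adjusted p = 0.000103). ELN (elastin), FBLN2 (fibulin 2), MCAM, COL3A1 (type III collagen) and PDGFRB, the receptor that marks pericytes and fibroblasts, were higher in the medulla at 1.97, 1.58, 1.57, 1.52 and 1.496. SPARC, a matrix protein, was not called at -0.15 (adjusted p = 0.453).

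Of 10 tested immune and blood genes, 2 were called, where 57.7% of all tested genes were, and 7 with library size alone. Both of the TMM calls were higher in the medulla. They were FGR, a kinase of myeloid cells, at 2.03 (SE 0.28, adjusted p = 0.000381) and PIK3CD, a kinase of leukocytes, at 1.73 (SE 0.34, adjusted p = 0.00225). The list summed to 297, 135, 154, 136 and 204 CPM in the cortex and 685, 193, 157, 130.0 and 163 CPM in the medulla of C1 to C5, so C1 was the highest in both tissues. HBB, beta globin, was not called at 0.54 (adjusted p = 0.164). Of 11 podocyte genes only SYNPO, synaptopodin, had an identifier, and it was higher in the medulla at 2.21 (SE 0.37, adjusted p = 0.00108), at 6.13 to 12.5 CPM against 0.88 to 3.32 CPM. The defining podocyte genes NPHS1 and WT1 were not analysed here, so SYNPO is the only podocyte gene with a value. The 1 adipocyte gene tested, FABP4, was not called at 0.64 (adjusted p = 0.494).

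**Figure D2:**
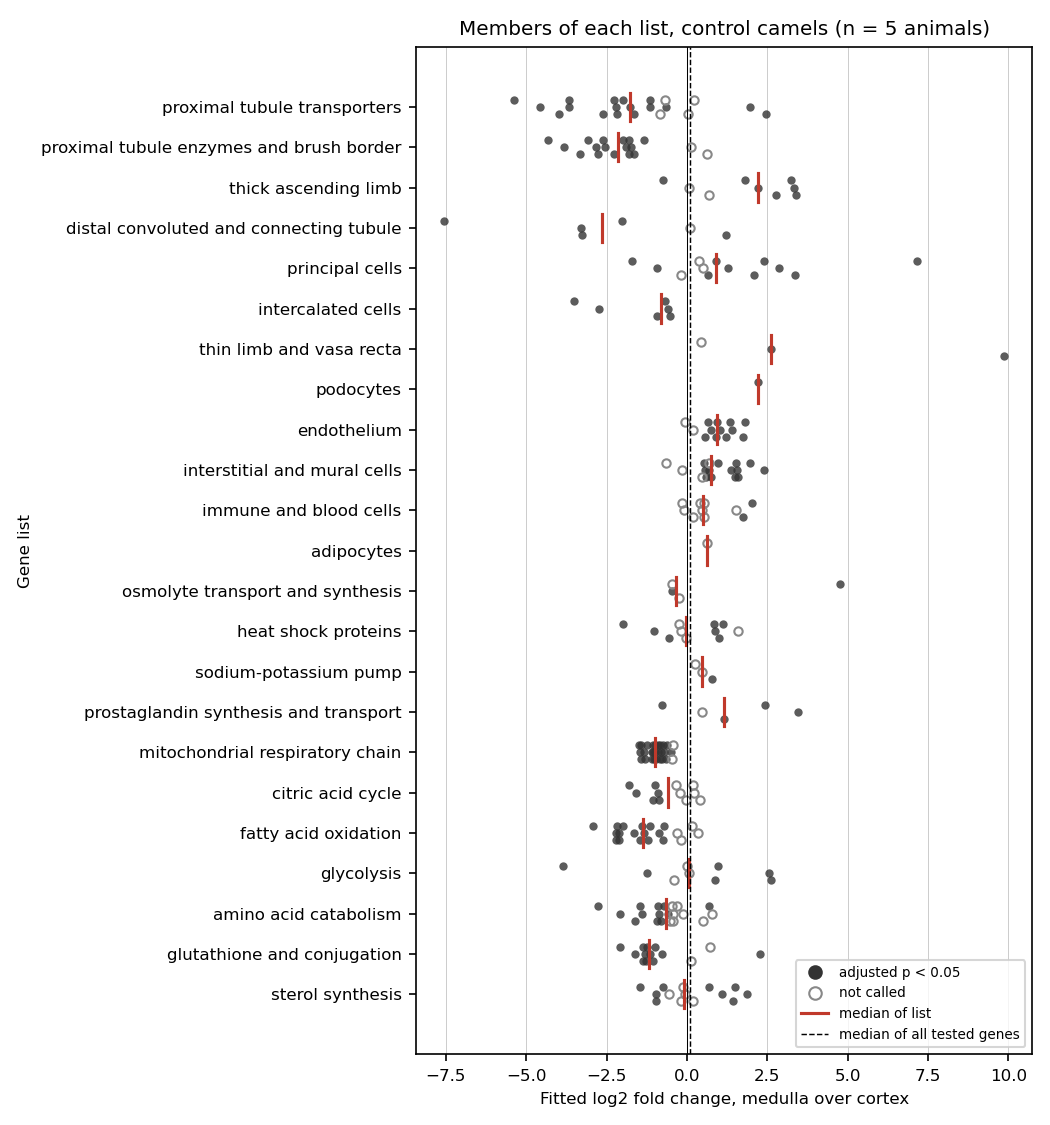
Fitted log2 fold change, medulla over cortex, of each tested member of the 23 lists in the control camels (n = 5 animals), with filled points for genes called at an adjusted p under 0.05, open points for others, a red bar at the list's median and a dashed line at the median of all tested genes (0.09). Proximal tubule, mitochondrial and fatty acid oxidation members lie mostly left of zero, and thick ascending limb, endothelial and interstitial members mostly right of it.

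The genes with a symbol and the widest gaps were taken by a rule that asked for a mean of at least 10 CPM in the higher tissue, the same direction in all 5 animals and no overlap. For the medulla these were SLC14A1, OGDHL, WNT7B, PROSER2, GC, CPA5, ALX1, RBP7, F10 and ANGPT2, with log2 fold changes from 5.24 to 9.87. For the cortex they were KLK1, APOA2, SLC22A8, C9, NOX4, NOL4, SLC6A19, AGPAT4, ANPEP and AOC3, from -4.26 down to -7.55.

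OGDHL, a relative of the oxoglutarate dehydrogenase of the citric acid cycle, was at 0.249, 0.566, 0, 0.0847 and 0 CPM in the cortex and at 27.3, 10.1, 46.1, 43.9 and 71.7 CPM in the medulla (chr11:66405399-66432247, minus strand). Every medulla library was far above the cortex, and the log2 fold change was 7.33 (SE 0.75, adjusted p = 0.000101). GC, the vitamin D-binding protein better known from liver and plasma, was at 9.39, 3.39, 5.77, 3.14 and 1.81 CPM in the cortex and 339, 130.1, 620.4, 325 and 154 CPM in the medulla (chr2:68593664-68626164, minus strand). Medulla C3 was the highest and C2 the lowest, with a log2 fold change of 6.03 (SE 0.32, adjusted p = 1.46e-05).

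ANGPT2, angiopoietin 2, which loosens endothelial contacts, had 5.4004, 3.75, 1.96, 3.22 and 3.72 CPM in the cortex and 123, 169, 179.7, 90.4 and 126 CPM in the medulla (chr26:24366321-24417850, plus strand), at 5.24 (SE 0.29, adjusted p = 1.54e-05). ALX1, a homeobox transcription factor known from the face and skull, was at 0 to 0.678 CPM in the cortex and 12.0 to 17.9 CPM in the medulla, at 5.56 (SE 0.48, adjusted p = 5.3e-05). RBP7, a retinoid-binding protein, F10, coagulation factor X, CPA5, a carboxypeptidase, and PROSER2 stood at 13.9 to 51.6, 6.85 to 23.3, 5.85 to 90.4 and 11.5 to 21.1 CPM in the medulla and at 0.0831 to 1.41, 0.0906 to 1.37, 0 to 0.997 and 0 to 0.424 CPM in the cortex.

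On the cortex side, APOA2, an apolipoprotein of high density lipoprotein, stood at 616, 671, 1198, 1586 and 1249.7 CPM in the cortex and 39.3, 1.014, 23.3, 46.1 and 49.4 CPM in the medulla (chr21:12381065-12382438, minus strand). Medulla C2 was again far below the rest, and the log2 fold change was -5.48 (SE 0.70, adjusted p = 0.000266). NOX4, the NADPH oxidase of renal tubules, was at 229 to 523 CPM in the cortex and 1.66 to 40.9 CPM in the medulla, at -4.69 (SE 0.64, adjusted p = 0.000374). C9, a component of the complement attack complex, NOL4, a nucleolar protein, AGPAT4, an acyltransferase of phospholipid synthesis, and AOC3, an amine oxidase of vessels and fat, had log2 fold changes of -4.99 (SE 0.53), -4.67 (SE 0.50), -4.36 (SE 0.23) and -4.26 (SE 0.54).

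**Figure D3:**
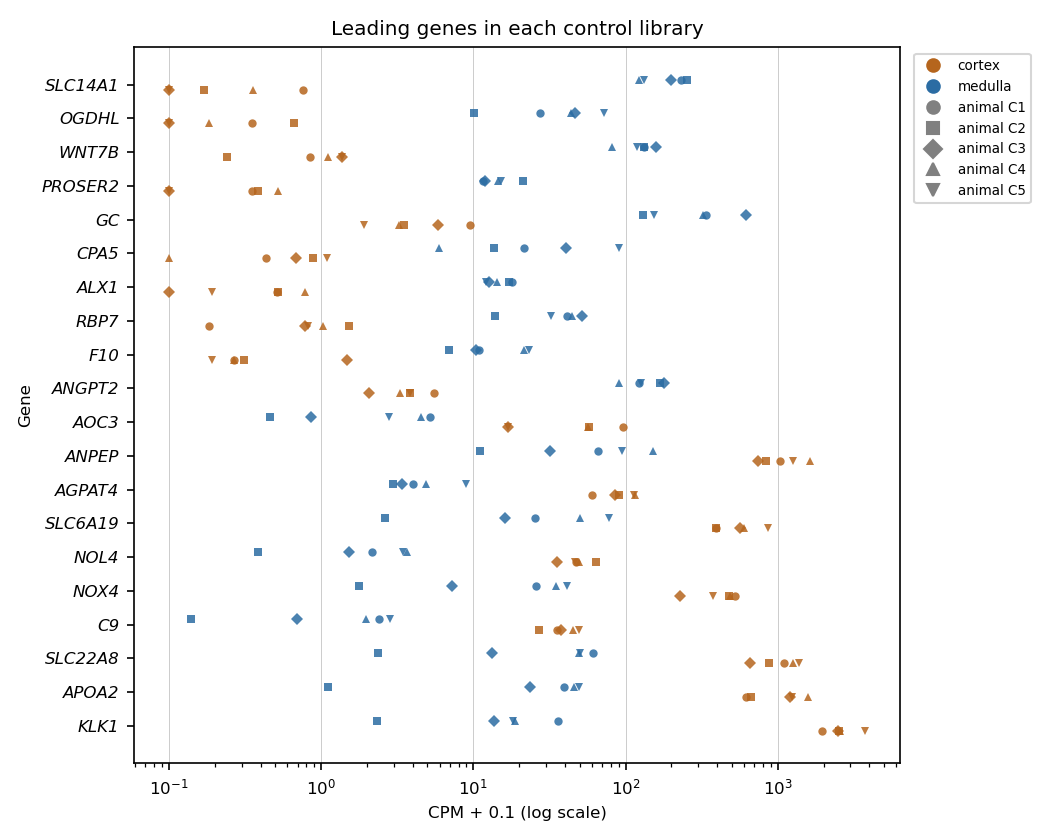
CPM plus 0.1 (log axis) of the 10 genes with the widest gap in each direction, with 1 point per control library, orange for cortex and blue for medulla and a symbol for each animal. No gene overlaps between tissues, by the rule that chose them, and medulla C2 (blue square) is the lowest medulla point for each of the 10 cortex genes.

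Genes of fatty acid oxidation were higher in the cortex. Of 27 listed, 20 were tested and 16 were higher in the cortex, none in the medulla, with a median of -1.36. With library size alone 13 were higher in the cortex and 1 in the medulla. ECHS1, the mitochondrial enoyl-CoA hydratase, stood at 4629.8, 5171, 5204, 6683 and 3724 CPM in the cortex and 925, 425, 662, 964 and 477 CPM in the medulla (chr11:96402-103875, minus strand). The lowest cortex library exceeded the highest medulla library, and the log2 fold change was -2.93 (SE 0.24, adjusted p = 4.59e-05). ACAA2, the thiolase of the last step, was at 6171, 5687, 5066, 7425 and 5927 CPM in the cortex and 1595, 503, 1369.6, 1679.8 and 2014 CPM in the medulla, lowest in medulla C2, at -2.19 (SE 0.30, adjusted p = 0.000419).

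ACADVL, the very-long-chain acyl-CoA dehydrogenase, was lower in the medulla, at -2.005 (SE 0.18). The carnitine palmitoyltransferases CPT1B and CPT2 differed less, at -0.71 and -0.73. Among those not called were HADHB, a subunit of the trifunctional protein, and the peroxisomal genes CROT and EHHADH, at -0.30 (adjusted p = 0.253), 0.35 (adjusted p = 0.199) and -0.18 (adjusted p = 0.798). EHHADH varied within the cortex from 58.6 to 428 CPM, with C3 lowest.

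The respiratory chain moved less per gene but in one direction under TMM. Of 28 tested subunits, 26 were higher in the cortex, with a median of -0.98, and with library size alone 14 were, with a median of -0.46. NDUFB4 of complex I showed the widest gap, at 255, 254, 440.3, 363 and 450.04 CPM in the cortex and 142, 97.1, 158, 115 and 109 CPM in the medulla. No medulla library reached the cortex, and the log2 fold change was -1.48 (SE 0.19, adjusted p = 0.000298). The catalytic subunits of ATP synthase, ATP5F1A and ATP5F1B, were the 2 not called, at -0.45 (adjusted p = 0.0621) and -0.44 (adjusted p = 0.112). The small subunit ATP5F1E was called at -1.43 (adjusted p = 0.00183).

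Of 12 tested genes of the citric acid cycle and its feeders, 6 were higher in the cortex and none in the medulla. With library size alone, 5 were higher in the cortex and 3 in the medulla. Under TMM, 26.9% of all tested genes were higher in the cortex and 30.8% in the medulla. PC, pyruvate carboxylase, which starts gluconeogenesis, had the widest gap, at 521 to 848 CPM in the cortex and 69.3 to 297 CPM in the medulla (-1.79 (SE 0.26, adjusted p = 0.000549)), followed by SUCLG1, the alpha subunit of succinyl-CoA ligase, at -1.58 (SE 0.22, adjusted p = 0.00038). IDH2, isocitrate dehydrogenase, was not called, at 0.21 (adjusted p = 0.414). Over the 12 members the log2 values ran from -1.79 to 0.42, the latter that of IDH3A, which was not called.

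Of 20 tested genes of amino acid catabolism, 11 were higher in the cortex and 1 in the medulla, and 5 and 3 with library size alone. Shares over all tested genes were 26.9% and 30.8% under TMM. GSTZ1, which isomerizes maleylacetoacetate in tyrosine breakdown, and AFMID, of tryptophan breakdown, were lower in the medulla, at -2.77 (SE 0.18) and -2.08 (SE 0.23). Of 14 tested genes of glutathione and conjugation, 11 were higher in the cortex and 1 in the medulla, and 8 and 2 with library size alone. GSTO1 and MGST1, glutathione transferases, were lower in the medulla, at -2.07 (SE 0.15) and -1.61 (SE 0.30).

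The flavin monooxygenases FMO1, FMO4 and FMO5 were lower in the medulla, at -1.99, -1.38 and -1.24. Counts may be split between such related genes.

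Of 9 tested glycolytic genes, 4 were higher in the medulla and 2 in the cortex, and 6 and 2 with library size alone. Shares over all tested genes were 30.8% and 26.9% under TMM. Of the 23 listed, 14, GAPDH, PKM and LDHA among them, were not analysed here. ENO2, the neuronal enolase, stood at 172, 158, 174, 149 and 214 CPM in the cortex and 17.1, 12.8, 10.2, 11.0 and 9.70 CPM in the medulla, with no overlap and little spread in the cortex, at -3.85 (SE 0.20, adjusted p = 1.46e-05). ENO1, the common enolase, was not called and was nearly level at 1016 to 1062 CPM in the medulla and 833 to 1263 CPM in the cortex. ALDOC, an aldolase, went the other way, at 8.39, 8.84, 11.4, 11.1 and 11.7 CPM in the cortex and 82.1, 84.7, 76.5, 37.1 and 46.1 CPM in the medulla (2.60 (SE 0.27, adjusted p = 0.000101)). HK1, hexokinase 1, and SLC2A1 (GLUT1), the basolateral glucose carrier of distal segments, were higher in the medulla, at 0.88 (SE 0.15) and 0.97 (SE 0.20).

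Of 14 tested enzymes of sterol synthesis, 5 were higher in the medulla and 4 in the cortex, shares near those of all tested genes (30.8% and 26.9%), and 8 and 2 with library size alone. HMGCS1, the synthase at the head of the pathway, stood at 78.2, 108, 43.2, 35.7 and 74.2 CPM in the cortex and 217, 388, 319, 95.5 and 249 CPM in the medulla, higher in the medulla in all 5 animals, at 1.87 (SE 0.23, adjusted p = 0.000206). LSS and DHCR7, later enzymes, were also higher in the medulla, at 1.503 and 1.09. SQLE, squalene monooxygenase, was lower in the medulla at -1.45 (SE 0.19, adjusted p = 0.000337), with 121 to 222 CPM against 367 to 655 CPM, and MVK and PMVK, the mevalonate kinases, at -0.97 and -0.95.

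**Figure D4:**
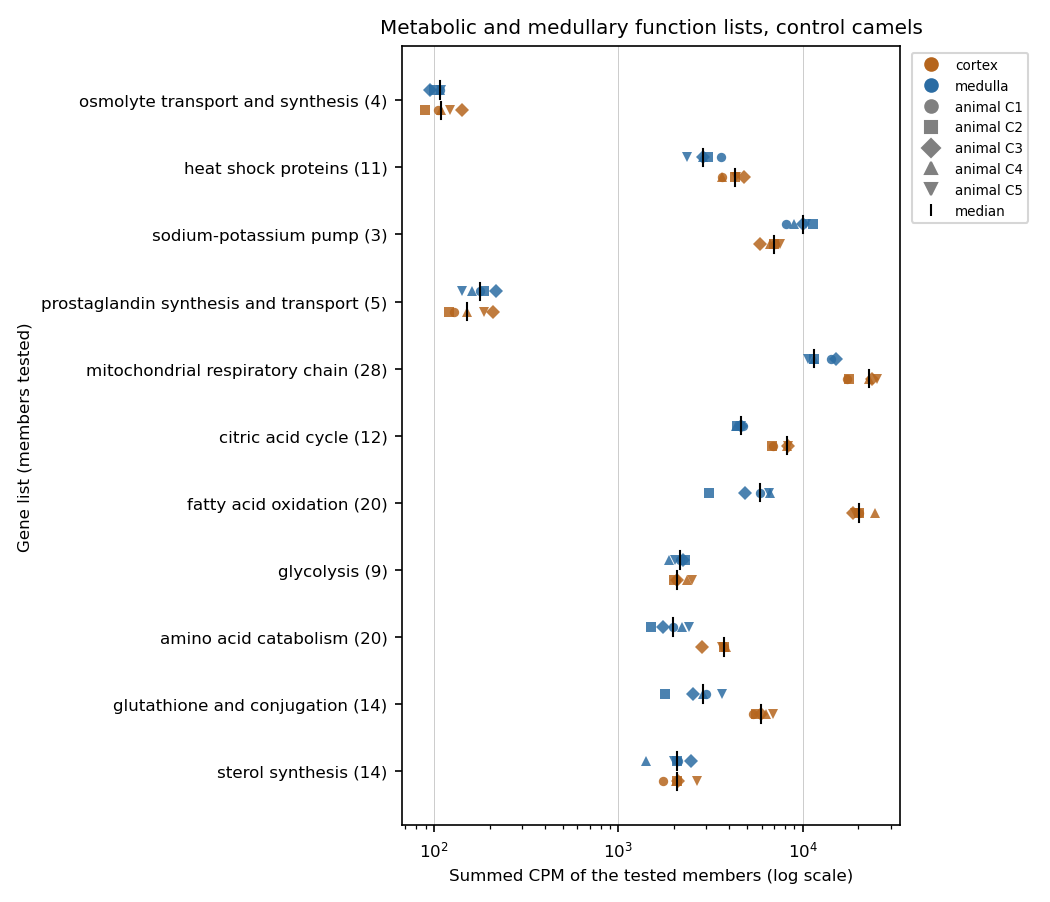
Summed CPM (log axis) of the tested members of the metabolic and medullary function lists, with 1 point per control library, orange for cortex and blue for medulla, a symbol for each animal and a black line at the median of 5. Fatty acid oxidation sums lie at 3095 to 6661 CPM in the medulla and 18651 to 24614 CPM in the cortex without overlap, while glycolysis and sterol synthesis sums overlap.

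Among the genes of medullary function, SLC6A12 (BGT1), the betaine carrier with which medullary cells gather an osmolyte, stood out. It was at 0.415, 0.283, 0.782, 0.932 and 0.634 CPM in the cortex and 17.6, 25.6, 16.1, 11.4 and 13.9 CPM in the medulla, without overlap, at a log2 fold change of 4.77 (SE 0.42, adjusted p = 5.35e-05). SLC6A6, the taurine carrier, was not called at -0.24 (adjusted p = 0.283). IMPA1, inositol monophosphatase, was called lower in the medulla at -0.45 (adjusted p = 0.0313), a call that was lost with library size alone and without C1, C3 or C5. AKR1B1, SLC5A3 and NFAT5 of the same list were not analysed here.

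Of 11 tested heat shock genes, 4 were higher in the medulla and 3 in the cortex, shares near those of all tested genes (30.8% and 26.9%), and 6 and 2 with library size alone. HSPB1 (HSP27), a small chaperone, stood at 549.8, 508, 1949, 747 and 1239.8 CPM in the cortex and 297, 186, 244, 187 and 205 CPM in the medulla, with cortex C3 highest, at -1.99 (SE 0.31, adjusted p = 0.000733). BAG3, a co-chaperone, was also lower in the medulla, at -1.03 (SE 0.19, adjusted p = 0.00157). HSPA4L (OSP94), known to respond to osmotic stress, and its relative HSPH1 were higher in the medulla at 0.88 (adjusted p = 0.0153) and 0.98 (adjusted p = 0.00159), with overlap. HSP90AA1 was not called at -0.03 (adjusted p = 0.889).

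Of 5 tested genes of prostaglandin synthesis and transport, 3 were higher in the medulla and 1 in the cortex, and 4 and 0 with library size alone. Shares over all tested genes were 30.8% and 26.9% under TMM. PTGS1, cyclooxygenase 1, stood at 6.48, 7.99, 14.3, 8.13 and 13.4 CPM in the cortex and 55.2, 58.7, 66.9, 45.8 and 36.7 CPM in the medulla, without overlap, at 2.42 (SE 0.25, adjusted p = 0.000101). PTGDS, the prostaglandin D synthase, and SLCO2A1, the prostaglandin carrier, were higher in the medulla at 3.45 (SE 0.70) and 1.14 (SE 0.23), PTGES2, a prostaglandin E synthase, was lower at -0.77 (SE 0.19), and PTGES was not called at 0.47 (adjusted p = 0.133). Of 3 tested genes of the sodium-potassium pump, 1 was higher in the medulla and 0 in the cortex, a share near that of all tested genes. With library size alone the counts were 3 and 0. The TMM call was the beta subunit ATP1B1, at 0.77 (SE 0.23, adjusted p = 0.0184), and it was lost without C3, C4 or C5.

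Levels of different genes are compared only in TPM, the scale that also divides by gene length. The 10 highest genes with a symbol in the medulla included TMSB4X, UMOD, FTL, TPT1, DNASE1, RPL31, ATP5F1E, RPS6 and RPL27A. In the cortex the 10 highest were FTL, ATP5F1E, TPT1, TMSB4X, ACAA2, RPL27A, RPS21, RPL31, RPS6 and RPL17. UMOD was at 1467 ± 280.0 TPM in the cortex and 10914 ± 1161 TPM in the medulla (mean ± SD, n = 5). 

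DNASE1, the secreted nuclease also found in urine, was the gene of this group that set the tissues farthest apart, at 109 ± 44.4 TPM in the cortex and 4721 ± 1497 TPM in the medulla (mean ± SD, n = 5). Its cortex levels were 44.4, 54.8, 166, 107 and 125 CPM and its medulla levels 2888, 3251, 3447, 1379 and 1925 CPM, with no overlap and with C4 and C5 the lowest of the medulla. Its log2 fold change was 4.77 (SE 0.43, adjusted p = 5.88e-05). It lies on an unplaced scaffold of the assembly. FTL, the ferritin light chain that stores iron, was higher in the cortex at 13105, 12204, 15194, 15416 and 19933 CPM against 4058, 2193, 3573, 3168 and 3539.9 CPM, and its log2 fold change was -2.21 (SE 0.24, adjusted p = 0.00014).

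The same contrast was fitted in the 10 libraries of the dehydrated camels and in the 10 of the rehydrated camels, which share no animal with the control camels. Medulla and cortex differed at 10069 of 14451 genes tested (69.7%) in dehydrated camels and at 7238 of 14395 (50.3%) in rehydrated camels. Of the 4403 genes higher in the medulla of control camels, 3863 (87.7%) were called in the same direction in dehydrated camels and 3249 (73.8%) in rehydrated camels. The backgrounds for that direction were 36.1% and 26.2% of all genes tested. Of the 3840 genes higher in the cortex, 3534 (92.0%) and 2989 (77.8%) were called again, against backgrounds of 33.6% and 24.1%. In the opposite direction, 8 of the 8243 genes were called in dehydrated camels and 0 in rehydrated camels.

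Of the leading genes, all 10 of the cortex were called again in both other sets, with a median log2 fold change of -4.68 in control, -3.76 in dehydrated and -5.02 in rehydrated camels. The 10 medulla genes had a median of 5.90 in control camels, 2.17 in dehydrated camels, where 6 were called, and 4.07 in rehydrated camels, where 8 were called. These genes were chosen for their size in the control camels, a choice that by itself favours smaller values in other animals.

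SLC14A1 kept a log2 fold change of 7.69 in dehydrated and 8.88 in rehydrated camels. GC did not, at 0.44 (adjusted p = 0.643) and 2.45 (adjusted p = 0.0537). In dehydrated camels GC ranged over 53.3 to 222 CPM in the medulla and 10.4 to 365 CPM in the cortex. OGDHL was at 1.43 (adjusted p = 0.231) in dehydrated and at 4.30 (adjusted p = 0.0047) in rehydrated camels, and CPA5 at 1.65 (adjusted p = 0.0153) and 0.38 (adjusted p = 0.634). WNT7B stayed higher in the medulla at smaller values of 2.69 and 3.62, with 11.3 to 38.3 CPM in dehydrated and 4.19 to 29.8 CPM in rehydrated cortex. AQP2, which was not called in control camels, was called higher in the medulla in dehydrated camels (1.13, adjusted p = 0.00104) and in rehydrated camels (1.65, adjusted p = 5.82e-05). None of these differences between conditions was itself tested.

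The lists were counted in the same way in these animals, under TMM only. Of all genes tested in dehydrated camels, 36.1% were higher in the medulla and 33.6% in the cortex. In rehydrated camels these shares were 26.2% and 24.1%. Proximal tubule transporters were higher in the cortex in 17 of 21 in dehydrated and 18 of 21 in rehydrated camels, and thick ascending limb genes higher in the medulla in 6 of 9 in both. Of the 28 respiratory chain subunits, 28 and 25 were higher in the cortex, and of the 20 fatty acid oxidation genes, 16 and 15. For interstitial and mural genes, the medulla was higher in 8 of 17 and the cortex in 3 in dehydrated camels, and in 12 and 0 in rehydrated camels. Endothelial genes were higher in the medulla in 8 and 9 of 13.

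**Figure D5:**
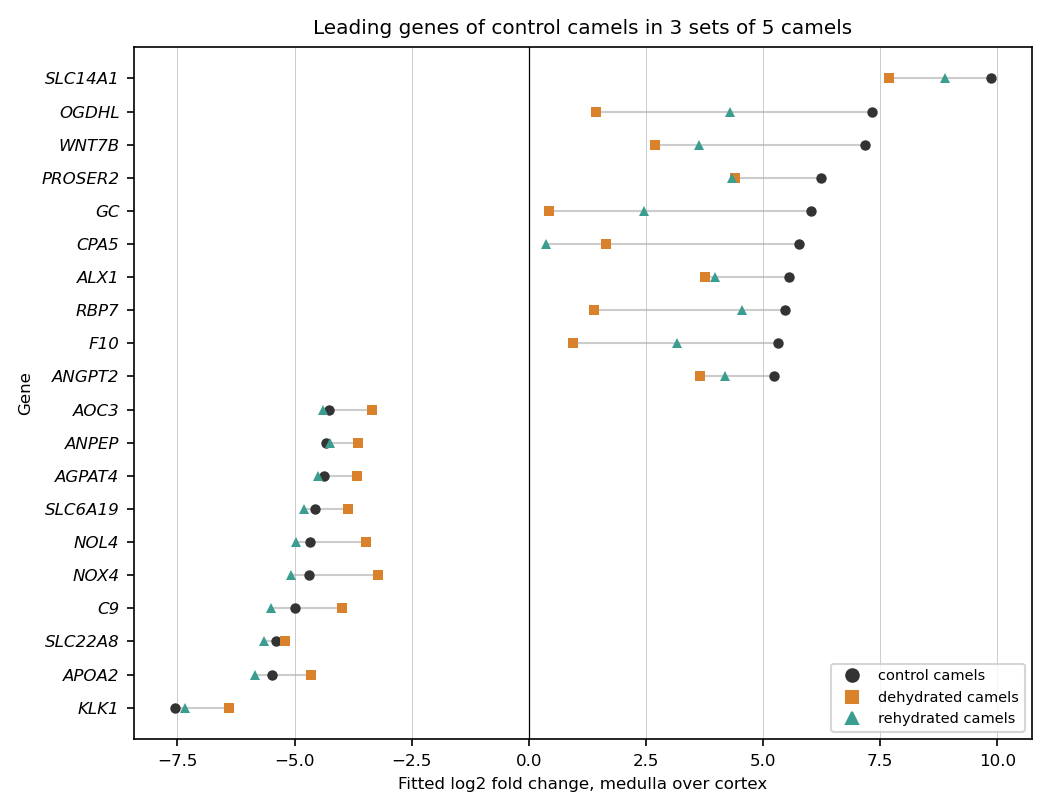
Fitted log2 fold change, medulla over cortex, of the 20 leading genes of the control camels (black circles) and of the same genes in dehydrated (orange squares) and rehydrated camels (green triangles), each from its own fit of 10 libraries. The 10 cortex genes keep values between -7.34 and -3.22 in the other animals, while the medulla genes run from 0.38 to 8.88.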

How the data were processed

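Poly(A)-selected RNA of 5 cortex and 5 medulla control libraries was compared, and 10 dehydrated and 10 rehydrated libraries served as further animals. The authors trimmed reads with BBDuk, aligned them to CamDro2 and deposited unnormalized counts of read pairs per Ensembl 100 gene from featureCounts 1.6.2, counted by strand per the file header. The aligner is not settled, since STAR is given in the methods while alignments in the header carry the name of Rsubread. The submitters' processing notes also list DESeq2 1.31.18. Samples were grouped by their labels.

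Counts were filtered with filterByExpr (minimum count 10, minimum total 15), scaled by TMM and tested with edgeR 4.0.16 in R 4.3.3 (quasi-likelihood, Benjamini-Hochberg adjustment, animal as a block), after the scripts were tested on simulated data. Both tissues of a camel carry the same label, which gives the pairing. Same-animal libraries deviated together weakly on average (mean correlation across genes 0.144, rank 11 of 120 pairings). The correlation was negative in C1 (-0.0305) and C5 (-0.0998). In 3 animals the cortex library correlated best with the medulla library of the same label. Dehydrated and rehydrated sets were fitted alone, with no block. P-values for control camels rest on how the difference between tissues varied among these animals. Those of the dehydrated and rehydrated sets rest on the spread between libraries of a tissue.

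The members and lists were chosen with earlier results of these data known. Named genes are list members with an identifier, the 10 leading genes in each direction and the 10 genes of highest TPM per tissue, of which a few are not reported here. Symbols came from the article's lists and RefSeq (3787 of 22444 identifiers). Alternatives were no block, all 30 libraries, RLE factors, library size alone, no filter, a mean of at least 1 CPM, DESeq2 1.42.0, limma-voom (limma 3.58.1), RIN as a covariate, an adjusted p under 0.01, and each animal left out.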

Additional observations from a re-analysis of the deposited data

Results flagged for a closer look

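Among 318 groups of 5 libraries examined (list sums, genes with values in the text, principal components and totals), 21 held a library whose gap to the nearest of the other 4 exceeded 0.71 of the group's range, and chance flags about 1 in 20 groups. Of these 21, 5 fell on the cortex library of C3. Its score on the second principal component was 81.3, against -46.9 to -10.9 in the other cortex libraries. Its amino acid catabolism genes summed to 2835 CPM against 3670 to 3817, and CPT2 was at 99.6 CPM against 138 to 146. CLDN3 (8.51 CPM against 1.10 to 2.08) and F10 (1.37 against 0.0906 to 0.212) were higher there than in the other cortex libraries.

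In cortex C4, fatty acid oxidation genes summed to 24614 CPM against 18651 to 20312, and SLC17A3 (777.9 CPM), GATM (600.6 CPM) and MCAM (26.6 CPM) were highest. In cortex C2, interstitial and mural genes summed to 1297 CPM against 1167 to 1197, EGF was highest at 1461 CPM and CLDN10 lowest at 456 CPM. MGST1 was highest in cortex C5, at 2121 CPM.

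In the medulla of C1, immune and blood genes summed to 685 CPM against 130.0 to 193. In medulla C2, PRODH2 was lowest at 3.93 CPM, and CLDN19 (108.3 CPM) and PDGFRB (97.7 CPM) were highest. Medulla C3 was highest for PVALB (3.11 CPM), ATP6V1B1 (282 CPM) and CPT1B (41.4 CPM), and medulla C4 lowest for CA12 (234 CPM).

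For 2 genes every control camel had more in the medulla and every dehydrated camel more in the cortex, PVALB with a log2 fold change of -1.71 and AQP1 with -0.78 in dehydrated camels. The difference between conditions was not tested.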

How the results depend on the processing

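The count of genes that differed stayed within 1.5 times of 8243 under every alternative run, from 5522 at an adjusted p under 0.01 to 9143 with all 30 libraries. Leaving out each animal gave 6344 (without C4) to 8129. Without the animal as a block, 8437 genes were called, 5186 of them at least 2-fold, and among the 133 genes with values in the text 2 calls were lost and 1 gained. With a block by label, the repeated genes numbered 7380 in dehydrated and 6191 in rehydrated camels, but the library names of the rehydrated set do not match within a label, so that the second value does not test pairing by animal. No count moved by over 1.5 times with or without a block. DESeq2 called 8600 and limma-voom 8458. The 5292 calls of at least 2-fold ranged from 4594 to 5970, and the genes repeated in dehydrated camels from 7048 to 7988 and in rehydrated camels from 4627 (without the libraries labelled R2) to 7297.

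Scaling by library size alone moved the split between tissues most, from 53.4% of calls higher in the medulla to 78.9%. Among the 133 genes, those that then changed sign included 4 with log2 values of 0.00326 (TMEM213), 0.0671 (IMPA1), 0.37 (SPARC) and 0.49 (HSP90AA1). Further genes that were not called under TMM and had small negative values also turned positive. The mean log2 ratio of the heat shock sums went from -0.49 to 0.0226. Apart from the 4 genes with values given here, the same setting lost 9 calls and added 10. Leaving out an animal lost at most 7 calls (C4 and C5).

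The precision is limited by the 5 animals of a set and a biological coefficient of variation of 29.6%.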

Other observations

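Gene families were also read from the start of their symbols, a grouping chosen after values were seen. Among all tested genes, 30.8% were higher in the medulla and 26.9% in the cortex. Of 54 mitochondrial ribosomal proteins (MRPL and MRPS), 45 were higher in the cortex and 0 in the medulla, with a median log2 fold change of -0.998, and with library size alone 32 and 3, with a median of -0.48. Of 21 proteasome subunits (PSM), 19 were higher in the cortex and 0 in the medulla, with a median of -0.99, and with library size alone 10 and 1, with a median of -0.47. Of 38 cytosolic ribosomal proteins (RPL and RPS), 30 were higher in the cortex and 0 in the medulla, with a median of -0.71, and with library size alone 7 and 1, with a median of -0.19. In dehydrated camels, all 38 of the latter were higher in the cortex under TMM, where 33.6% of all tested genes were.

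Solute carriers (SLC) were divided, with 35 of 86 higher in the cortex and 21 in the medulla, and with library size alone 23 and 33, so that the side with more calls turned. Of 12 mitochondrial carriers (SLC25), 7 were higher in the cortex and 2 in the medulla, and 5 and 5 with library size alone. Of 7 collagens, 5 were higher in the medulla and 2 in the cortex under both scalings. Of 7 claudins, 5 were higher in the medulla and 1 in the cortex, and 5 and 0 with library size alone.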
